A study of Mus musculus with 4 samples.

Results

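The genes described here make, break down and sense oxysterols or export sterols, and they comprise 8 of the 32285 genes in the RNA matrices: the enzymes Ch25h, Cyp7b1 and Hsd3b7, the receptor Gpr183, the nuclear receptors Nr1h2 (LXRβ) and Nr1h3 (LXRα), and the transporters Abca1 and Abcg1. The set was selected because Cyp7b1 had one of the highest ratios of day 5 over day 0 in cDC2-like nuclei in earlier results of these data. Hence that ratio is a description of how the genes were chosen and supports nothing by itself. Peaks were taken within 10 kb of the start sites of these genes, 43 of 142799 peaks at day 0 and 40 of 147725 at day 5.

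The data are 10x Multiome profiles, in which RNA and open chromatin (ATAC) are read from the same nucleus. Livers came from C57BL/6J mice, whose age the labels do not give, that were fed chow with 0.1% DDC (3,5-diethoxycarbonyl-1,4-dihydrocollidine), a compound that injures bile ducts, for 0 days (D0, the control) or 5 days (D5). Both groups carried no engineered allele according to the labels, and live CD45+ CD64- CD11c+ cells were sorted before nuclei were isolated. The 4 samples correspond to 2 libraries, 1 per day, each read in both layers, and how many mice went into a library is not given in the sources used here.

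Oxysterols are oxidised forms of cholesterol. Ch25h adds a hydroxyl group to cholesterol, Cyp7b1 adds a further one and thereby completes the ligand 7α,25-dihydroxycholesterol, and Hsd3b7 converts this ligand into a form that the receptor no longer binds. Gpr183 (EBI2) is the receptor that guides dendritic cells and lymphocytes along gradients of this ligand, while the LXR nuclear receptors are activated by oxysterols and switch on Abca1 and Abcg1, which export cholesterol from the cell.

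The promoters of 3 genes are shown first because the accessibility results below refer to the open region at their start sites. They are the 250 bases before the start site in RefSeq (GRCm38.p6, the mm10 build of the data), printed 5′ to 3′ along the minus strand, and capitals mark bases that lay inside a peak of both libraries. Ch25h spans chr19:34475149-34475398, Gpr183 chr14:121965194-121965443 and Abca1 chr4:53159896-53160145.
Ch25h: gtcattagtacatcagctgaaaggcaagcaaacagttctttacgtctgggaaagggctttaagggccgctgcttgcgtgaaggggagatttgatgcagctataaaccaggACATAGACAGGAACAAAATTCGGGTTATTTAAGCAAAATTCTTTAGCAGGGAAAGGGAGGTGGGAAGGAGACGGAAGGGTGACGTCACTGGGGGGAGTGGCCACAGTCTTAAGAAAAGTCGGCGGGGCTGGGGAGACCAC
Gpr183: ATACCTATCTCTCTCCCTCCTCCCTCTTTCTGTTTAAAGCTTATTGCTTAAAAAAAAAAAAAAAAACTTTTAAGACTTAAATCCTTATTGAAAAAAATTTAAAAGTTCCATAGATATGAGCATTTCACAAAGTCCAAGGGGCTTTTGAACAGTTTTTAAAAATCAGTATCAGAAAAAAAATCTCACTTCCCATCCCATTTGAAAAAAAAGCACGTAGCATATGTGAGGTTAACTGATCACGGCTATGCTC
Abca1: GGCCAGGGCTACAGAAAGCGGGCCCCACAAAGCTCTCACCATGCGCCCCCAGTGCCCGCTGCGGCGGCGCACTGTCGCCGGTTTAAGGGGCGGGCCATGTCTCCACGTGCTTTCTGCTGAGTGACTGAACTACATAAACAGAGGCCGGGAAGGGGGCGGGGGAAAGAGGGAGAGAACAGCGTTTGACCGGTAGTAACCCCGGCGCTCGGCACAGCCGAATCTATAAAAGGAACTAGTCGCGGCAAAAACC
All 250 bases were inside a peak for Gpr183 and Abca1, and 140 of 250 were for Ch25h. A promoter was found in the RefSeq table for 6 of the 8 genes, with none for Cyp7b1 and Abcg1. In windows from 250 bases before to 50 bases after the start site, no match to AGGTCA (held by 16.3% of 32851 promoters in the table), to 2 such half-sites 4 bases apart (0.0152%), to GAAANNGAAA (3.44%), to TGANTCA (7.81%) or to GGGANTTTCC (0.411%) was found on either strand in the promoters of these 6 genes. The letters GAGGAA, held by 28.3% of all promoters, occurred once, 10 to 15 bases after the second start site of Nr1h3. A match, or its absence, describes the letters of these windows and no more. Only exact letters were searched, so variant forms of a site were not counted. The paired half-site is also too rare among all promoters for its absence here to tell anything.

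The RNA layer held 44496348 UMIs (unique molecular identifiers) in 16260 called barcodes at D0 and 94374499 in 27873 at D5, and the 2 matrices shared 591 barcodes. After filtering, 10982 and 19832 nuclei remained, with medians of 1732 and 2556 UMIs. Of these, 32.9% at D0 and 25.7% at D5 held UMIs of 2 or more lymphoid genes together with 2 or more dendritic cell genes from the marker lists, and results without such nuclei are among the alternatives. UMIs were summed over the nuclei of a class and are given as counts per 1e6 UMIs of the class (CPM) with the exact Poisson 95% interval in brackets. Nuclei are no replicates, so no test was possible. The intervals reflect nothing beyond counting error, and day and library cannot be told apart. Because intervals of large classes are narrow, a gene was called past 2-fold only if the ratio reached that size among genes with at least 30 UMIs over both groups.

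Classes were named from marker genes, hence the ending "-like", and the genes described here were left out of the clustering. The compared classes were cDC2-like (type 2 conventional dendritic cells; 2585 nuclei at D0 and 8936 at D5), preDC-like (dendritic cell precursors; 230 and 1507), cDC1-like (1723 and 2968), Ccr7+ DC-like (mature, migratory dendritic cells; 285 and 956), pDC-like (plasmacytoid dendritic cells; 2321 and 1997), NK cell-like (1432 and 1111), T cell-like (353 and 423), macrophage-like (694 and 1041) and nonclassical monocyte-like (116 and 212) nuclei. The preDC-like cluster carried 6 of 7 preDC markers and its leading genes included Alox5, Pi16, Apod and Cyp7b1 itself. T cell-like nuclei also carried 8 of 8 NK cell markers. Within the cDC2-like class, 1 cluster led by Dab2, Ifitm1 and Il1r2 (cluster 3) grew from 333 to 2650 nuclei, so values are also given by cluster.

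Ch25h, the enzyme that starts the pathway, was barely detected. It had 0 UMIs in cDC2-like nuclei at D0 (0 to 0.704 CPM) and 10 at D5 (0.383 CPM, 0.184 to 0.705). In macrophage-like nuclei 6 UMIs at D0 (4.30 CPM, 1.58 to 9.36) and 2 at D5 (0.645 CPM, 0.0782 to 2.33) were found. These few reads sat mainly in a small macrophage-like cluster led by Mmp13, C3ar1 and C1qa, which held 4 UMIs in 99 nuclei at D0 and 2 UMIs in 17 nuclei at D5. Over all 9 classes the gene stayed below 30 UMIs in each comparison, so no ratio was read from it. At this depth, a preDC-like source of Ch25h was not detectable, as 0 of 230 nuclei at D0 and 0 of 1507 at D5 held a UMI.

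Cyp7b1, which completes the Gpr183 ligand, was the member with the largest differences. In cDC2-like nuclei 9 UMIs were found at D0 (1.72 CPM, 0.785 to 3.26) and 673 at D5 (25.8 CPM, 23.9 to 27.8). The intervals were apart, and the D5 level was 15.02-fold higher (log2 ratio 3.91, 2.98 to 5.04), which was the highest of 12520 genes. The D0 level was not above that of uncalled barcodes (2.71 CPM, 1.09 to 5.58), so the size of the fold rests on a D0 value at background. This is the contrast by which the set was chosen, and 9.31% of those genes passed 2-fold in either direction, most of them towards lower values (1017 against 149). In the same nuclei the summed level of 5 Clec10a+ markers went from 2860 to 1929 CPM and that of 8 cDC1 markers from 1128 to 718 CPM. That of 5 cell cycle markers went from 308 to 170 CPM, and that of 6 neutrophil markers rose from 16.6 to 33.9 CPM. The part of these shifts in the Cyp7b1 ratio was not tested.

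The D5 level of Cyp7b1 was above the D0 level in all 5 cDC2-like clusters, with intervals apart in 4 of them. Cluster 0, led by Tnfsf9, Tnip3 and Mgl2, went from 0.873 CPM (0.106 to 3.15) to 21.8 (19.0 to 24.9). Cluster 4, with Skint3, Mgl2 and Clec10a among its leading genes, went from 0.813 CPM (0.0206 to 4.53) to 32.7 (28.3 to 37.7). Cluster 3 had the highest D0 level of the cDC2-like clusters at 6.33 CPM (1.73 to 16.2) and reached 28.1 (24.4 to 32.1). At D5 the level of cluster 4 was above that of cluster 0, with intervals apart. Cluster 10, led by Adgrl3 and with 3 of 9 cDC2 markers raised, went from 3.15 CPM (0.381 to 11.4) to 24.2 (16.0 to 35.3). The cycling cluster 15 had 0 UMIs at D0 (0 to 8.16 CPM) and 12.4 CPM at D5 (6.94 to 20.4), with overlapping intervals. Its D5 level also overlapped that of uncalled barcodes, which went from 2.71 CPM (1.09 to 5.58) at D0 to 9.45 (7.04 to 12.4) at D5.

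**Figure D1:**
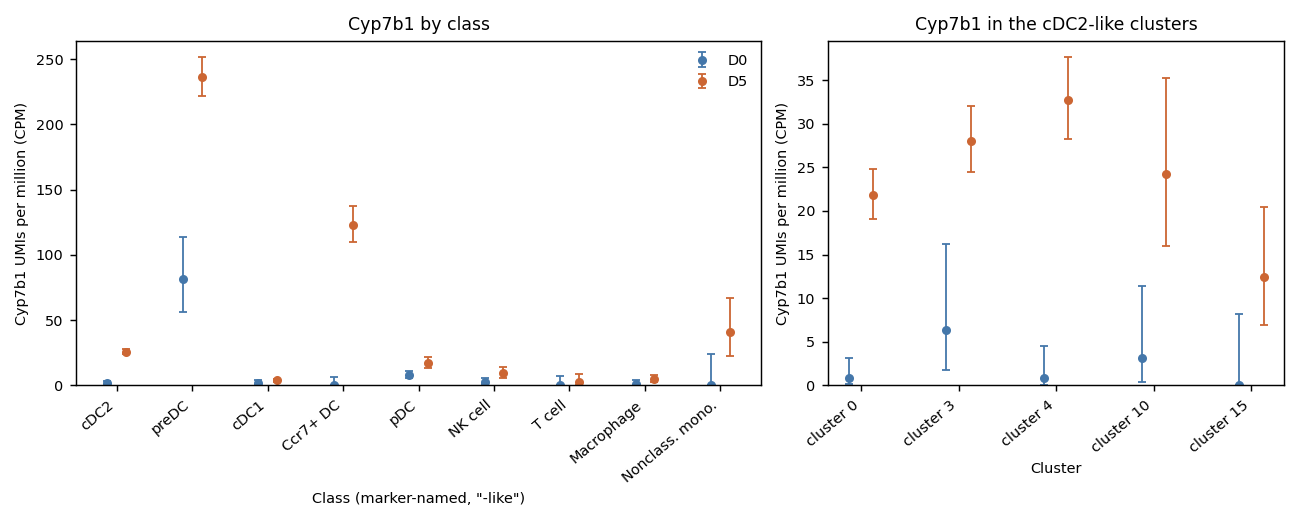
Cyp7b1 CPM by class (left) and by cDC2-like cluster (right) at D0 (blue) and D5 (orange). Points are sums over nuclei of 1 library per day, and bars are exact Poisson 95% intervals that cover counting error only. At D5 the preDC-like class (236 CPM) and the Ccr7+ DC-like class (123 CPM) stood above all other classes.

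The highest Cyp7b1 level of any named class was found in preDC-like nuclei. It was 81.2 CPM at D0 (56.2 to 113) from 34 UMIs and 236 CPM at D5 (222 to 252) from 960 UMIs, a 2.91-fold difference (log2 ratio 1.54, 1.05 to 2.08). The 2 intervals did not overlap, and 10.9% of 9122 genes passed 2-fold between days in this class. Marker lists moved in the same nuclei: the summed level of 7 preDC markers went from 7851 to 5142 CPM, that of 8 pDC markers from 7356 to 4481 CPM and that of 8 cDC1 markers from 1588 to 727 CPM. The preDC list was higher still in pDC-like nuclei, at 12095 and 11903 CPM. The part of these differences in the Cyp7b1 result was not tested. Cyp7b1 was already read in preDC-like nuclei before the diet, when cDC2-like nuclei held 1.72 CPM.

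In Ccr7+ DC-like nuclei Cyp7b1 had 0 UMIs at D0 (0 to 5.97 CPM) and 319 UMIs at D5 (123 CPM, 110 to 137). Measured against a floor of 3 UMIs over the D0 nuclei of the class (4.85 CPM), the D5 level was at least 25.3-fold higher. The lower end of the counting interval of the log2 ratio was 4.36, below the 4.66 of that floor, and 8.78% of 8061 genes passed 2-fold here. The D0 side depended on the clustering. At a coarser clustering resolution and without doublet removal, a cluster led by Cxcl9 joined this class and brought 31 and 28 of its D0 UMIs, and the D5 over D0 log2 ratios were then 1.71 and 2.12. In the other clusters of the class at these settings, 0 and 1 UMI were found at D0. Marker lists moved in the Ccr7+ DC-like nuclei of the main clustering too. The 8 Ccr7+ DC markers went from 7939 to 5514 CPM and the 8 cDC1 markers from 1138 to 627 CPM. The 9 cDC2 markers were at 479 and 515 CPM. The part of these differences in the Cyp7b1 result was not tested here either.

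In the other classes the levels of Cyp7b1 were below those of preDC-like nuclei on both days and below that of Ccr7+ DC-like nuclei at D5. pDC-like nuclei went from 7.76 CPM (5.23 to 11.1) to 17.1 (13.1 to 21.9), which was 2.20-fold higher with intervals apart, beside 3.76% of genes past 2-fold. Nonclassical monocyte-like nuclei held 0 UMIs at D0 (0 to 23.7 CPM) and 15 at D5 (40.7 CPM, 22.8 to 67.1), with overlapping intervals. cDC1-like nuclei reached 3.71 CPM at D5 (2.61 to 5.11), macrophage-like nuclei 4.52 (2.47 to 7.58) and T cell-like nuclei 2.34 (0.283 to 8.44). Free RNA sets the scale for these values: in barcodes that were not called and held 1 to 100 UMIs, Cyp7b1 was at 2.71 CPM at D0 (1.09 to 5.58) and 9.45 CPM at D5 (7.04 to 12.4). The D5 values of cDC1-like, macrophage-like and T cell-like nuclei, and that of NK cell-like nuclei at 9.13 CPM (5.57 to 14.1), were at or below this level. Expression in these classes cannot be told from free RNA here. The pDC-like level at D0 overlapped that of free RNA, which also rose between days, and lay above it at D5. The size of the pDC-like fold therefore rests on a D0 value near background.

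Counted as shares of nuclei, Cyp7b1 was found in 0.348% (exact Clopper-Pearson 95% interval 0.159 to 0.660) of cDC2-like nuclei at D0 and in 4.44% (4.02 to 4.89) at D5. Median depths in these nuclei were 1843 and 2680 UMIs, so each nucleus was also thinned to 1000 UMIs. The thinned shares were 0.271% (0.109 to 0.557) and 2.05% (1.76 to 2.36). In preDC-like nuclei they were 6.09% (3.37 to 10.0) and 13.3% (11.7 to 15.2), and in Ccr7+ DC-like nuclei 0 of 285, which allows a share of nuclei with a UMI, not of nuclei that express the gene, of up to 1.29%, and 7.11% (5.57 to 8.93). T cell-like nuclei, which should lack the gene, had thinned shares of 0 of 353 nuclei at D0 and 0.473% (0.0573 to 1.70) at D5, at median depths of 1224 and 1733. The shares therefore followed the same order as the CPM.

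Cyp7b1 is also a gene of hepatocytes, so markers of other liver cells were read beside it. The summed level of 13 hepatocyte genes, Alb and Cyp2e1 among them, fell in cDC2-like nuclei from 243 to 140 CPM and in Ccr7+ DC-like nuclei from 115 to 87.1 CPM, and it was 141 and 117 CPM in preDC-like nuclei. It was 192 and 123 CPM in uncalled barcodes. In nuclei without any hepatocyte UMI, the Cyp7b1 ratio was as large, at a log2 ratio of 4.05 in cDC2-like nuclei. The 5 cholangiocyte genes (Krt19, Krt7, Epcam, Spp1 and Sox9) went from 39.3 to 70.3 CPM in cDC2-like nuclei and from 12.9 to 18.5 CPM in Ccr7+ DC-like nuclei, with a rise from 36.4 to 66.7 CPM in uncalled barcodes. Epcam was also a leading gene of the cluster led by Dab2 when doublets were kept. This list is therefore no measure of bile duct RNA alone. The part of these genes in the Cyp7b1 result was not tested. The 6 Kupffer cell genes were at 22.7 and 13.6 CPM in cDC2-like nuclei. In macrophage-like nuclei they went the other way, from 10.8 to 85.2 CPM, and the cholangiocyte genes went from 24.4 to 100.05 CPM. The macrophage-like cluster led by Mmp13 shrank from 99 to 17 nuclei, while the other (cluster 7) grew from 595 to 1024. The part of these shifts in the macrophage-like day differences given below was not tested. Of the 5 genes that mark the sex of the mice, the 4 Y-linked ones were read in both libraries and Xist had 11 and 10 UMIs, so both libraries came from animals of the same sex.

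Hsd3b7, which inactivates the ligand, was read at low levels. In cDC2-like nuclei it was at 11.6 CPM (8.90 to 14.95) at D0 and 10.9 (9.62 to 12.2) at D5. In preDC-like nuclei it was at 28.7 CPM (14.8 to 50.05) and 22.9 (18.5 to 28.04). Neither class showed a difference beyond counting error, and the cDC2-like levels were not above those of uncalled barcodes, which held 21.7 CPM (16.4 to 28.2) at D0 and 12.8 (9.95 to 16.2) at D5. Lower D5 levels were read in Ccr7+ DC-like nuclei, from 34.0 CPM (21.0 to 51.9) to 14.3 (10.0 to 19.7), which passed 2-fold at a log2 ratio of -1.25 (-2.06 to -0.41) but not without doublet removal (-0.97) or in nuclei without hepatocyte UMIs (-0.95). Lower levels with intervals apart but short of 2-fold were found in cDC1-like nuclei, from 31.0 CPM (25.9 to 36.9) to 17.8 (15.3 to 20.7), and in macrophage-like nuclei, from 27.2 CPM (19.3 to 37.4) to 14.2 (10.3 to 19.1). In these classes, 7.5% of cDC1-like and 8.51% of macrophage-like genes passed 2-fold. The levels of all 3 classes overlapped those of uncalled barcodes on the same day, which went the same way. Such an overlap does not by itself mark free RNA, as NK cell-like nuclei held only 1.37 CPM (0.282 to 4.00) at D5. The cDC1-like cluster 9 lay above uncalled barcodes with intervals apart, at 39.1 CPM (28.9 to 51.7) at D0 and 29.1 (21.5 to 38.6) at D5. The other cDC1-like clusters overlapped them. The part of free RNA in these differences was not tested.

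Gpr183 was read in every class, with its highest levels in dendritic cells. In Ccr7+ DC-like nuclei it went from 652 CPM (590 to 719) to 866 (831 to 903), the highest value of the gene at D5. In cDC2-like nuclei it went from 634 CPM (612 to 655) to 504 (495 to 512), and in pDC-like nuclei from 523 CPM (500 to 546) to 391 (371 to 411). These 3 differences exceeded counting error in opposite directions, at log2 ratios of 0.41, -0.33 and -0.42, and all were below 2-fold. With TMM factors the cDC2-like ratio was -0.14, and with at least 2000 UMIs the pDC-like ratio was -0.17. In preDC-like nuclei Gpr183 was at 561 CPM (492 to 638) and 610 (586 to 635), and in cDC1-like nuclei at 388 CPM (369 to 407) and 373 (362 to 386), with overlapping intervals in both classes.

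Lymphoid and monocytic nuclei held less of the receptor. NK cell-like nuclei went from 109 CPM (95.1 to 125) to 176 (159 to 194), beside 5.15% of genes past 2-fold, where the ratio was 0.69 but -0.14 without doublet removal, and macrophage-like nuclei from 221 CPM (197 to 247) to 276 (258 to 295). The 2 macrophage-like clusters went opposite ways with intervals apart, from 172 CPM (150 to 197) to 276 (258 to 296) in cluster 7 and from 588 CPM (477 to 719) to 252 (121 to 464) in the one led by Mmp13, which held 10 UMIs at D5. T cell-like nuclei were at 110 CPM (83.6 to 143) and 116 (94.0 to 141), and none of the 3 genes of the set with enough UMIs for a ratio passed 2-fold there, beside 5.18% of all genes. In nonclassical monocyte-like nuclei 10 UMIs at D0 (64.3 CPM, 30.8 to 118) and 75 at D5 (203 CPM, 160 to 255) were found, a 3.16-fold difference (log2 ratio 1.66, and 0.92 without doublet removal) beside 9.68% of genes past 2-fold. Uncalled barcodes held 157 CPM at D0 (142 to 173) and 184 at D5 (172 to 195), so the levels of NK cell-like, T cell-like and nonclassical monocyte-like nuclei were not above that of free RNA. The NK cell-like and nonclassical monocyte-like levels at D0 lay below it with intervals apart, and those at D5 overlapped it.

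The cDC2-like decrease of Gpr183 varied between clusters. It was 634 (590 to 680) and 432 CPM (415 to 449) in cluster 4, 848 (778 to 923) and 608 CPM (563 to 655) in cluster 10 and 591 (522 to 666) and 418 CPM (382 to 456) in cluster 15. In cluster 0 it was 649 (616 to 683) and 607 CPM (592 to 622), and in cluster 3 it was 393 (345 to 445) and 420 CPM (406 to 435). Intervals were therefore apart in clusters 4, 10 and 15 and overlapped in clusters 0 and 3. Cluster 3, which held the lowest D0 level, made up more of the class at D5.

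Enzyme and receptor were also read in the same nuclei, after thinning each nucleus to 1000 UMIs. At D5, 108 of 201 preDC-like nuclei with a Cyp7b1 UMI also held a Gpr183 UMI (53.7%, 46.6 to 60.8), against 477 of 1306 without one (36.5%, 33.9 to 39.2). In Ccr7+ DC-like nuclei these shares were 63.2% (50.7 to 74.6) and 47.0% (43.6 to 50.3), and in cDC2-like nuclei 36.1% (29.1 to 43.5) and 34.3% (33.3 to 35.3). Nuclei of 1 library share their source, so these are descriptions with counting intervals.

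**Figure D2:**
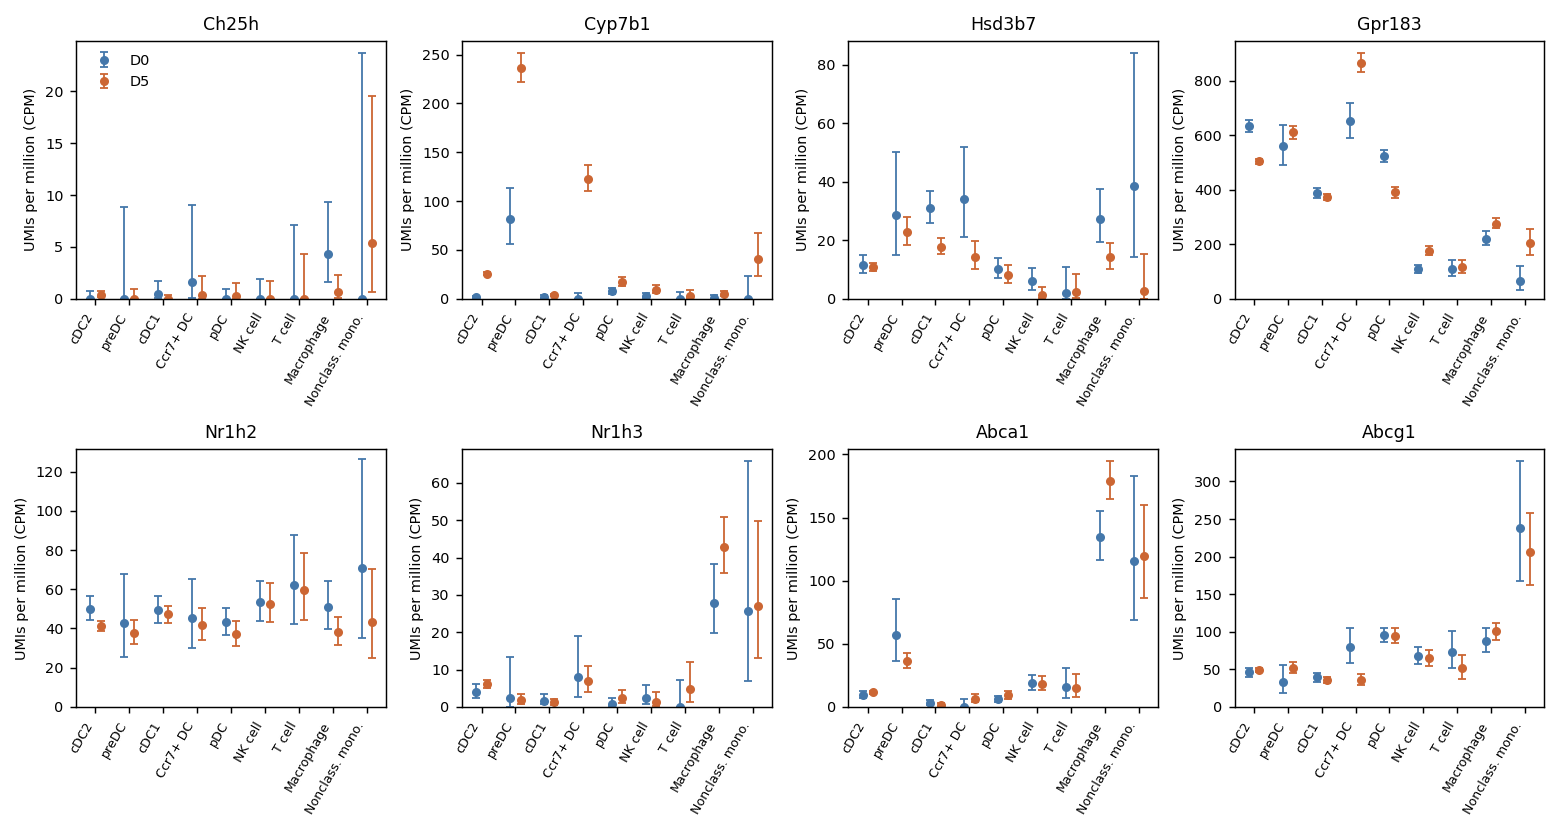
CPM of the 8 genes by class at D0 (blue) and D5 (orange), with exact Poisson 95% intervals and a separate axis for each gene. Gpr183 was highest in dendritic cell-like classes, Nr1h3 and Abca1 were highest in macrophage-like and nonclassical monocyte-like nuclei, and Nr1h2 lay between 37.1 and 70.7 CPM in all classes shown. The Nr1h2 levels were not above those of uncalled barcodes.

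Of the LXR genes, Nr1h2 varied less over the classes than Nr1h3. Nr1h2 ranged from 43.0 CPM (25.5 to 67.9) in preDC-like to 70.7 (35.3 to 127) in nonclassical monocyte-like nuclei at D0, and from 37.1 CPM (31.2 to 43.9) in pDC-like to 59.6 (44.3 to 78.3) in T cell-like nuclei at D5. At D0 the intervals of all 9 classes overlapped, whereas at D5 that of T cell-like nuclei (44.3 to 78.3) was apart from those of pDC-like (31.2 to 43.9) and cDC2-like nuclei. Among the 9 classes the days separated in cDC2-like nuclei alone, at 50.2 CPM (44.3 to 56.6) and 41.3 (38.9 to 43.8), and the size of this difference was a log2 ratio of -0.28 where the median of all genes was -0.18. With TMM factors, which centre the median near 0, the ratio was -0.09. Uncalled barcodes held 65.8 CPM (56.3 to 76.5) at D0 and 45.2 (39.7 to 51.3) at D5, so free RNA fell the same way as the cDC2-like level. No class had an interval above that of free RNA on either day. This comparison cannot tell expression from free RNA, because a gene read evenly in all classes also lies near its free-RNA level. Free RNA made up only part of a nucleus, as the 8 T cell markers were at 112 CPM in cDC2-like nuclei and 632 CPM in uncalled barcodes at D0. The differences of Nr1h2 between classes are therefore not interpreted.

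Nr1h3 was highest in macrophage-like nuclei, with 27.95 CPM (19.9 to 38.2) at D0 and 42.9 (35.9 to 50.9) at D5, and in nonclassical monocyte-like nuclei, with 25.7 CPM (7.01 to 65.8) and 27.1 (13.0 to 49.9). The log2 ratio between days in macrophage-like nuclei was 0.62 (0.09 to 1.17), with levels whose intervals overlapped. Cells with surface CD64, a receptor carried by most liver macrophages, had been sorted out, so the macrophage-like nuclei are those that passed this gate. In cDC2-like nuclei Nr1h3 was at 4.01 CPM (2.48 to 6.13) and 6.10 (5.19 to 7.12), close to the 5.03 and 6.67 CPM of uncalled barcodes, and its log2 ratio of 0.61 had an interval from -0.06 to 1.34. In preDC-like nuclei only 1 UMI at D0 and 7 UMIs at D5 (1.72 CPM, 0.693 to 3.55) were found.

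The transporters, both textbook LXR targets, differed in where they were read. Abca1 was, like Nr1h3, highest in macrophage-like nuclei, with 135 CPM (116 to 155) at D0 and 179 (165 to 195) at D5, a log2 ratio of 0.41 with intervals apart but short of 2-fold. It was higher at D5 in both macrophage-like clusters, at 126 (107 to 147) and 175 CPM (160 to 190) in cluster 7 and 202 (139 to 284) and 504 CPM (308 to 779) in the one led by Mmp13. Nonclassical monocyte-like nuclei were at 116 CPM (68.6 to 183) and 119 (86.7 to 160). Among dendritic cells the preDC-like nuclei stood out, with 57.3 CPM (36.7 to 85.3) and 36.7 (31.0 to 43.0), whereas cDC2-like nuclei were at 9.54 CPM (7.08 to 12.6) and 11.5 (10.2 to 12.9) and cDC1-like nuclei at 3.10 (1.65 to 5.31) and 1.70 (0.992 to 2.73). Uncalled barcodes held 8.52 and 7.60 CPM, so the cDC2-like level was near that of free RNA.

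Abcg1 was at 29.8 CPM (23.5 to 37.3) at D0 and 30.6 (26.1 to 35.6) at D5 in uncalled barcodes. The cDC1-like levels, the preDC-like level at D0 and the Ccr7+ DC-like level at D5 overlapped these, and such an overlap cannot tell expression of Abcg1 from free RNA. Its highest level was in nonclassical monocyte-like nuclei at 238 CPM (167 to 328) at D0 and 206 (162 to 258) at D5, above pDC-like nuclei at 95.4 CPM (85.9 to 106) and 94.9 (85.2 to 105) and macrophage-like nuclei at 87.4 CPM (72.6 to 104) and 100 (89.5 to 112). NK cell-like nuclei were at 67.4 CPM (56.5 to 79.8) and 64.8 (54.6 to 76.4), and T cell-like nuclei at 73.6 CPM (52.1 to 101) and 51.4 (37.3 to 69.0). In cDC2-like nuclei Abcg1 was at 45.8 CPM (40.2 to 52.0) and 49.0 (46.4 to 51.8), with no difference beyond counting error. A lower D5 level was read in Ccr7+ DC-like nuclei, from 79.3 CPM (58.7 to 105) to 35.9 (28.9 to 43.9), at a log2 ratio of -1.14 (-1.66 to -0.62), which fell short of 2-fold without doublet removal (-0.84) and with at least 2000 UMIs (-0.91).

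Counted over the set, 7 of the 8 genes had enough UMIs for a ratio in cDC2-like nuclei, and 1 of these 7, Cyp7b1, passed 2-fold, beside 9.31% of all genes. The median log2 ratio of the 7 genes was 0.10 and that of all 12520 genes was -0.18. In Ccr7+ DC-like nuclei 5 genes could be read, of which Cyp7b1 was higher and Hsd3b7 and Abcg1 were lower past 2-fold at D5, beside 8.78% of all genes. As given above, the calls of Hsd3b7 and Abcg1 were each lost under 2 alternatives. Hence the calls in cDC2-like nuclei rested on 1 gene of the set.

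**Figure D3:**
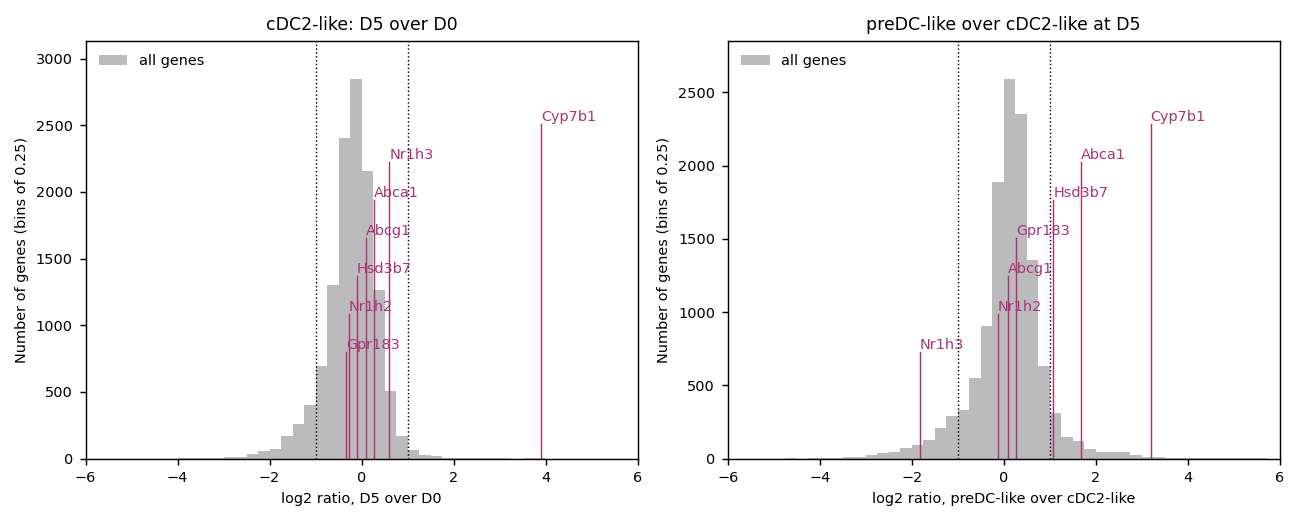
Log2 ratios of all genes with at least 30 UMIs (grey bars, bins of 0.25) with the genes of the set as purple lines, for D5 over D0 in cDC2-like nuclei (left) and for preDC-like over cDC2-like nuclei at D5 (right). The height of a purple line has no meaning, and dotted lines mark 2-fold. Cyp7b1 lies at 3.91 on the left and 3.19 on the right.

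The preDC-like nuclei were then compared with the cDC2-like nuclei of the same day, where both come from 1 library. Cyp7b1 was 47.3-fold higher in preDC-like nuclei at D0 (log2 ratio 5.56, 4.47 to 6.81), over a cDC2-like level that was not above free RNA, and 9.15-fold higher at D5 (3.19, 3.05 to 3.34). Abca1 was 6.01-fold higher at D0 (2.59, 1.82 to 3.32) and 3.19-fold higher at D5 (1.67, 1.38 to 1.96). Hsd3b7 was 2.46-fold higher at D0 (1.30, 0.27 to 2.21) and 2.11-fold higher at D5 (1.08, 0.72 to 1.42), with overlapping levels at D0 and a ratio of 0.92 with TMM factors at D5. The log2 ratio of Nr1h3 at D5 was -1.82 (-3.16 to -0.75), between levels that were not above free RNA. Both classes share the free RNA of 1 library, and their levels were apart, at 1.72 CPM (0.693 to 3.55) in preDC-like and 6.10 (5.19 to 7.12) in cDC2-like nuclei. In this comparison, 22.4% of 9901 genes at D0 and 14.3% of 12382 genes at D5 passed 2-fold, so calls are frequent between these clusters, and a cluster set against others is a description.

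Gpr183, Nr1h2 and Abcg1 differed by less than 2-fold between these nuclei. At D5 their log2 ratios were 0.28 (0.21 to 0.34), -0.12 (-0.38 to 0.12) and 0.08 (-0.13 to 0.29), near the median of all genes at 0.16.

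Chromatin at these genes was compared in regions that had a peak in both libraries, as fragments per 1e6 fragments in such regions, also written CPM. Near Cyp7b1, whose start site lies at chr3:18243338 on the minus strand with no other annotated start site within 10 kb, there were 5 shared regions. In cDC2-like nuclei they held 78.5 fragments at D0 (7.58 CPM, 6.00 to 9.46) and 243 at D5 (8.72 CPM, 7.66 to 9.89), a log2 ratio of 0.20 (-0.17 to 0.59). In Ccr7+ DC-like nuclei it was 0.33 (-0.80 to 1.63) and in preDC-like nuclei -0.52 (-1.38 to 0.45). The sum over the regions therefore did not differ between days beyond counting error in these 3 classes, in which the RNA did, although few fragments were read. In cDC2-like nuclei 4.43% of 98842 regions passed 2-fold between days.

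Single regions near Cyp7b1 held few fragments each. The region 4.15 kb inside the gene (chr3:18238737-18239611) went from 6.5 fragments (0.628 CPM) to 42 fragments (1.51 CPM) in cDC2-like nuclei, a log2 ratio of 1.26 (0.06 to 2.72). The regions beside the start site, centred 0.137 kb inside the gene and 0.452 kb upstream, had ratios of 0.48 (-0.22 to 1.24) and 0.01 (-0.63 to 0.69). The remaining shared regions were lower at D5. That 1.59 kb inside the gene went from 0.918 to 0.790 CPM and that 2.12 kb upstream from 1.26 to 0.808 CPM. A peak 3.75 kb upstream (chr3:18246641-18247526) was called at D5 and not at D0, with 20.5 fragments in cDC2-like nuclei, 7 in preDC-like and 7 in Ccr7+ DC-like nuclei. Peaks were called in each library by itself, so a peak called on 1 day alone can reflect depth.

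At Ch25h 3 shared regions held fragments while its RNA was near 0. The start site of Gm26902 also lies within 10 kb. The regions held 12.0 CPM (9.96 to 14.3) at D0 and 11.7 (10.5 to 13.0) at D5 in cDC2-like nuclei, and 21.2 (16.0 to 27.6) and 18.8 (14.4 to 24.1) in macrophage-like nuclei. The region at the start site, part of which is printed above in capitals, held 52.5 fragments at D0 and 110 at D5 in cDC2-like nuclei, at a log2 ratio of -0.36 (-0.85 to 0.14).

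At Gpr183 the summed regions hid opposite differences between preDC-like and cDC2-like nuclei. Their sum was 58.0 CPM (55.2 to 60.9) in cDC2-like and 54.2 (48.2 to 60.7) in preDC-like nuclei at D5. Yet the region 3.21 kb inside the gene (chr14:121961579-121962370) was lower in preDC-like nuclei on both days, with 5.50 against 13.7 CPM at D0 and 7.82 against 17.7 CPM at D5 (log2 ratio -1.18, -1.66 to -0.73). The region 4.43 kb upstream (chr14:121969174-121970085) was higher there on both days, with 14.5 against 6.47 CPM at D0 and 12.3 against 7.13 CPM at D5 (0.79, 0.37 to 1.19). The open region at the start site itself, which covers the printed bases, did not differ at D5, with 15.2 and 15.6 CPM (-0.04, -0.39 to 0.30). The share of all regions past 2-fold between preDC-like and cDC2-like nuclei was not computed, here or for the genes below. In pDC-like nuclei the region 3.21 kb inside the gene was at 3.85 CPM at D0 and 4.30 at D5. That 4.43 kb upstream was at 18.2 and 22.2 CPM there, so neither difference was particular to preDC-like nuclei. In NK cell-like nuclei the summed Gpr183 regions fell between days from 53.0 CPM (47.3 to 59.2) to 34.1 (28.3 to 40.8), at a log2 ratio of -0.64 that was 0.25 within 2 kb of the start site. At the far edge of the window, peaks of 713 and 512 bases held 105 and 35 of these fragments at D0. The D5 peak of the same region had 560 bases and held 35.5. The part of these unequal peak borders in the fall was not tested.

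At Nr1h3 accessibility was higher in cDC2-like than in preDC-like nuclei. The RNA at D5 was higher in cDC2-like nuclei too, with intervals apart, although neither class was above free RNA. The 4 shared regions held 73.6 CPM (68.4 to 79.0) and 63.9 (60.9 to 66.9) in cDC2-like nuclei, and 38.5 (27.3 to 52.8) and 45.1 (39.7 to 51.1) in preDC-like nuclei. The difference was largest in a region 1.96 kb upstream of the start site (chr2:91196519-91197442), at 24.97 against 2.50 CPM at D0 and 21.4 against 6.74 CPM at D5 (log2 ratio -1.67, -2.18 to -1.19). The start-site region was at 16.5 and 13.0 CPM at D5 (-0.34, -0.72 to 0.02). Start sites of Acp2 and Gm13783 also lie within 10 kb, so the regions of this window are not assigned to 1 gene.

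The regions near Abca1 were more open at D5 in 4 of the 9 classes. The summed regions went from 34.3 CPM (30.9 to 38.1) to 43.8 (41.4 to 46.3) in cDC2-like nuclei, from 23.0 (19.8 to 26.5) to 29.2 (26.0 to 32.6) in cDC1-like, from 31.2 (27.9 to 34.8) to 41.4 (36.8 to 46.5) in pDC-like and from 76.9 (66.7 to 88.3) to 102 (91.4 to 114) in macrophage-like nuclei. The log2 ratios were 0.35, 0.35, 0.41 and 0.41, each with an interval above 0 and each below 2-fold. In the remaining classes the sums did not rise beyond counting error. They were lower at D5 in NK cell-like, T cell-like and nonclassical monocyte-like nuclei. The share of all genes whose regions rise in this way was not computed. In cDC2-like nuclei the region 4.35 kb inside the gene (chr4:53155094-53155996) had the largest ratio among the 4, from 4.68 to 8.10 CPM (0.79, 0.34 to 1.27), and the start-site region that covers the printed bases went from 15.02 to 19.9 CPM (0.40, 0.14 to 0.67). Abca1 RNA differed beyond counting error in macrophage-like nuclei alone of these 4 classes. In preDC-like nuclei, which held more Abca1 RNA than cDC2-like nuclei, the regions differed little from them at D5, with a log2 ratio of 0.13 (-0.06 to 0.33).

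The regions near Hsd3b7 were more open in preDC-like than in cDC2-like nuclei at D5, at 32.5 CPM (27.97 to 37.6) and 24.0 (22.2 to 25.9), a log2 ratio of 0.44 (0.19 to 0.68). The regions 5.05 and 6.88 kb downstream of the start site had the largest of these ratios, 1.51 (0.66 to 2.32) and 1.16 (0.53 to 1.77). At Nr1h2 and Abcg1 the sums over regions in cDC2-like nuclei differed by log2 ratios of 0.05 (-0.04 to 0.14) and 0.05 (-0.09 to 0.20) between days. A region centred 10.2 kb downstream of the Nr1h2 start site was higher in preDC-like than in cDC2-like nuclei, at 7.51 against 0.580 CPM at D0 and 3.68 against 0.503 CPM at D5 (log2 ratio 2.87, 1.82 to 3.97), and the start site of Pold1 also lies within 10 kb of Nr1h2. In pDC-like nuclei this region was higher still, at 14.6 CPM at D0 and 16.9 at D5.

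**Figure D4:**
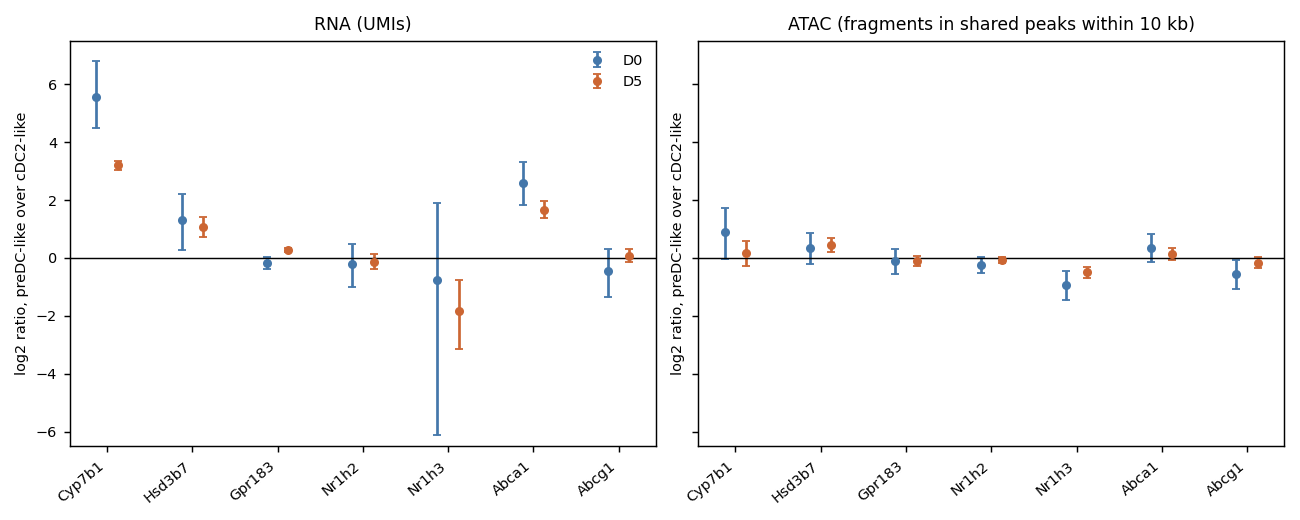
Log2 ratios of preDC-like over cDC2-like nuclei for 7 genes at D0 (blue) and D5 (orange), in RNA (left) and in fragments of shared peaks within 10 kb (right), with counting 95% intervals. Cyp7b1 was at 5.56 and 3.19 in RNA and at 0.89 and 0.17 in fragments.

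**Figure D5:**
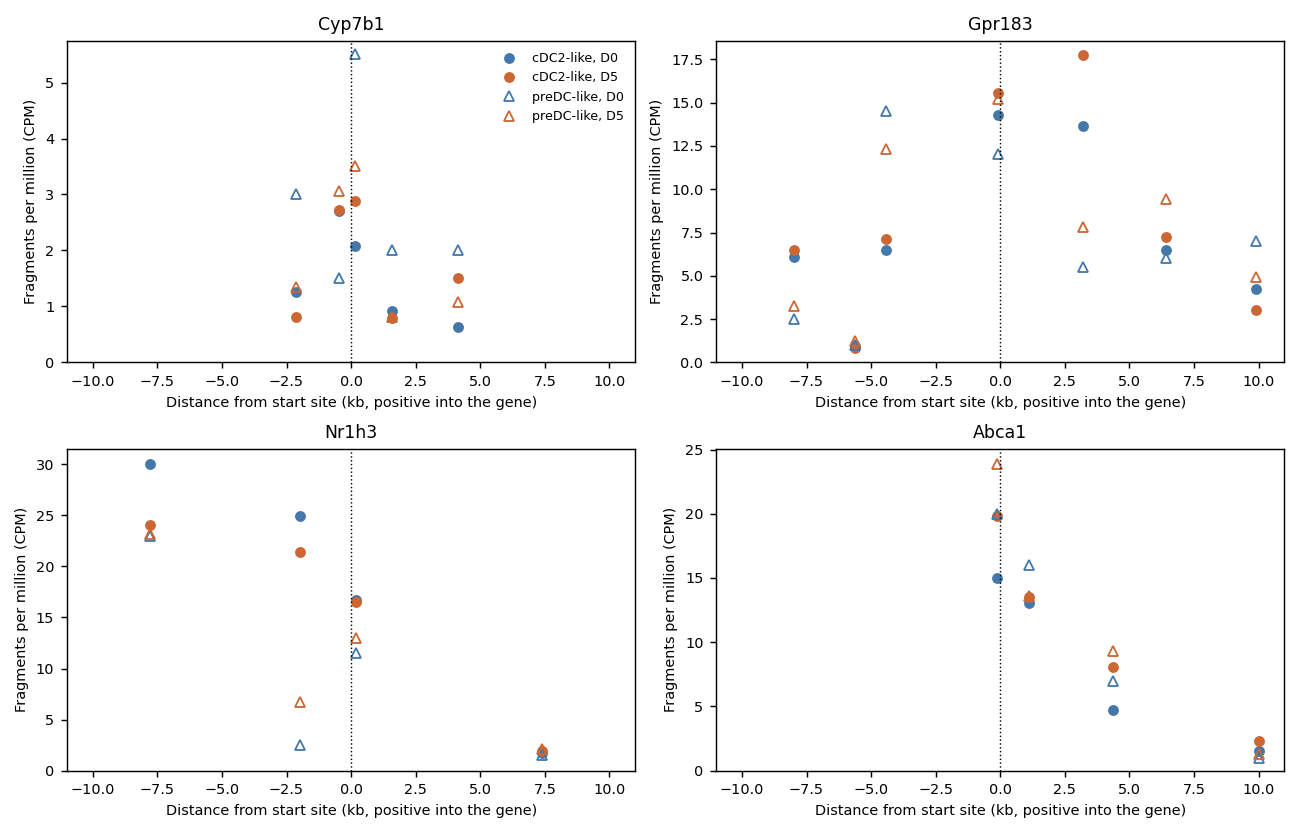
Fragment CPM in single shared regions against the distance of the region's centre from the start site in kb, positive into the gene, for cDC2-like (filled circles) and preDC-like (open triangles) nuclei at D0 (blue) and D5 (orange). Regions that differ are seen 1.96 kb upstream of Nr1h3 (21.4 and 6.74 CPM at D5) and 3.21 kb inside Gpr183 (17.7 and 7.82 CPM at D5).

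Other genes of sterol metabolism were read from a list of 49 genes. In cDC2-like nuclei 40 of the 49 had at least 30 UMIs, of which 1 was higher and 3 were lower past 2-fold at D5, beside 9.31% of all genes. Soat2, which stores cholesterol as esters, was higher, at 4.39 CPM at D0 and 10.1 at D5 (log2 ratio 1.21, 0.59 to 1.89). Hsd11b1, a steroid-reducing enzyme that also acts on 7-oxygenated sterols, was at 10.1 and 3.87 CPM (-1.38, -1.88 to -0.88), Lpl, a lipoprotein lipase and LXR target, at 5.72 and 1.65 CPM (-1.80, -2.50 to -1.07), and the scavenger receptor Msr1 at 3.05 and 1.04 CPM (-1.56, -2.50 to -0.57). In the same nuclei the 8 macrophage markers went from 104 to 59.0 CPM and the hepatocyte genes fell as given above, and their part in these lower values was not tested. Free-RNA levels of these 4 genes were not computed. The median log2 ratio of the 40 genes was -0.28, against -0.18 for all genes. Within the list it was 0.01 for the 12 readable LXR targets and -0.74 for the 3 readable oxysterol enzymes. It was -0.28 for 5 other oxysterol receptors and LXR partners and -0.32 for 20 genes of sterol transport, storage and feedback.

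For preDC-like over cDC2-like nuclei at D5, 3 of 40 list genes were higher past 2-fold and 2 were lower, beside 14.3% of all genes, so the list did not stand apart from that share. Those higher were Npc1, which releases cholesterol from lysosomes (105 against 38.4 CPM), Gramd1b, which carries it to the endoplasmic reticulum (202 against 67.8 CPM), and Mylip, which degrades the LDL receptor (104 against 48.3 CPM). Pltp (16.7 against 39.3 CPM) and Soat2 (4.43 against 10.1 CPM) were lower. In macrophage-like nuclei 38 list genes could be read and 1 passed 2-fold, beside 8.51% of all genes. This was the LXR target Apoe, from 1931 to 4245 CPM (1.14, 1.08 to 1.20), in nuclei whose Kupffer cell and cholangiocyte lists were also higher at D5, as given above. Free-RNA levels of Apoe and of the preDC-like list genes were not computed either.

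Finally, the genes whose CPM varied most alike over the 18 pools of class and day were looked up among 14857 genes. For Cyp7b1 these were Apod, Il1r1 and Fam217b (Pearson's r of 0.88, 0.83 and 0.82). For Gpr183 they were Siglecg, Mpc1 and Flt3 (0.96, 0.93 and 0.93), for Nr1h3 Ninj1, Itgb5 and Clec4d (0.93, 0.93 and 0.93), for Abca1 Cd93, Selenop and Atp6v1e1 (0.93, 0.91 and 0.90) and for Abcg1 Ogfod1, Naip2 and Tmem38b (0.91, 0.87 and 0.86). The pools of a day share a library, and these values describe 18 points. Ch25h had 25 UMIs over all pools and was not ranked.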

How the data were processed

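RNA and open chromatin were read in sorted liver nuclei at D0 and D5 of the DDC diet, 1 library per day. The deposited RNA and joint matrices hold raw counts per gene or peak and barcode. The authors used Cell Ranger (6.0.2 in the RNA file headers) and Cell Ranger ARC 2.0.2 on mm10, as named in the submitters' processing notes and file headers. Whether intronic reads were counted is not given in the sources used here, so levels were not compared between genes. Peaks were called by the authors per library. The joint matrix of D5 was matched to called barcodes by identical counts over all genes (27873 of 27873), and at D0 all 16260 such matches were also the same barcode. Even numbers made up 80.9% (D0) and 83.2% (D5) of the peak matrix entries, so peak counts were divided by 2 and called fragments.

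The 8 genes, the sterol list and the marker lists were chosen with earlier results of these data known. Barcodes under 1000 UMIs or above 10% mitochondrial UMIs were left out, and those with a doublet score of 0.2 or more were removed (scanpy 1.11.5, expected rate 0.1; 23.1% at D0 and 25.5% at D5). The doublet caller's own thresholds would have taken 42.0% and 9.99%, so a common cut was set after the scores were seen. Both libraries were clustered together (2000 variable genes, 30 components, 15 neighbours, Leiden resolution 1.0) without the 8 genes and the sterol list. A cluster of at least 50 nuclei took the name of a class if 3 or more of its markers were raised 2-fold over the mean of the other clusters and their share was at least 1.5 times that of the next class, with no class holding more markers among the 10 leading genes. Failing that, it took the class with at least 2 markers among the leading genes and more than any other. cDC2-like or unnamed clusters were called preDC-like when at least 5 of 7 preDC markers were raised over cDC2-like clusters and fewer than 3 markers of any class but cDC2 were raised. The naming limits were chosen after the clusters had been seen, and 7 of 25 clusters got no name. Neutrophil-like nuclei (5 and 91) were not compared.

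UMIs were summed per class and divided by the class total. Intervals are exact Poisson for levels, Clopper-Pearson for shares and conditional binomial for ratios, all at 95%, and cover counting error only. Shared regions (127216) are peaks of both libraries that overlap by at least 1 base, and coordinates count from 1. The named genes are the 8 genes, the list genes past 2-fold in the comparisons given, and for 5 genes the 3 most alike by Pearson's r of log2(CPM + 1). The rule fixed values of list genes for cDC2-like nuclei only; those in preDC-like and macrophage-like nuclei were chosen after the values were seen. The ratio and its interval were tested on simulated data. Alternatives were TMM factors (edgeR 4.0.16), no doublet removal, at least 2000 UMIs, thinning to 1000 UMIs, nuclei without hepatocyte UMIs or without mixed markers, resolution 0.6, and for peaks a 2 kb window, all peaks, another scaling and at least 20 fragments.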

Additional observations from a re-analysis of the deposited data

Results flagged for a closer look

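Gpr183 differed between days in opposite directions in classes of the same libraries. Its D5 over D0 log2 ratio was 0.41 in Ccr7+ DC-like, 0.69 in NK cell-like, 0.32 in macrophage-like and 1.66 in nonclassical monocyte-like nuclei, and it was -0.33 in cDC2-like and -0.42 in pDC-like nuclei, each with counting intervals apart. The macrophage-like value pools a cluster that went from 172 to 276 CPM with a smaller one that went from 588 to 252 CPM. The NK cell-like value was -0.14 without doublet removal. NK cell-like and nonclassical monocyte-like levels lay below those of uncalled barcodes (157 and 184 CPM) at D0 and overlapped them at D5. With 1 library per day this difference between classes was not tested.

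Cyp7b1 was also read in nuclei outside the named classes. In a cluster of 149 nuclei at D0 and 124 at D5 that stayed unnamed, led by the interferon-induced genes Cxcl9, Ifit1 and Cxcl10, it was at 80.2 CPM (54.1 to 115) at D0 and 87.1 CPM (61.3 to 120) at D5, against 2.71 and 9.45 CPM in uncalled barcodes. No control group exists for this cluster beyond the D0 library itself.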

How the results depend on the processing

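The Cyp7b1 D5 over D0 log2 ratio in cDC2-like nuclei (3.91) lay between 3.30 and 4.48 under the 7 RNA alternatives named in the methods. These do not all hold the same class: without doublet removal the clusters led by Dab2 and by Fam71a went unnamed and 1443 and 4250 cDC2-like nuclei remained, and with at least 2000 UMIs a cluster led by Gna14 and Il1r2 did (751 and 4690). Taken in single clusters, added after the data were seen, it was 2.15 in cluster 3, 5.33 in cluster 4 and 2.95 in cluster 10, and in cluster 0 it stayed inside the counting interval of the class. In cluster 15, with 0 UMIs at D0, it was 0.90 against the floor of 3 UMIs. This is no lower bound, as the intervals of the levels overlapped there. In Ccr7+ DC-like nuclei the bound of 4.66 moved to 3.96 with at least 2000 UMIs, 3.53 after thinning and 3.92 without mixed nuclei, where fewer D0 UMIs set a higher floor, and to 2.12 without doublet removal and 1.71 at resolution 0.6, where a further cluster joined the class. The preDC-like over cDC2-like ratio of Cyp7b1 at D5 (3.19) was 3.03 with TMM factors and 3.01 after thinning. The number of genes of the set past 2-fold in cDC2-like nuclei was 1 and became 2 in nuclei without hepatocyte UMIs, where Nr1h3 passed; the cause was not tested. No ratio past 2-fold changed its sign under any alternative run. Counting small ratios too, the direction was kept in 50 of 60 results with TMM factors, 42 of 47 without doublet removal, 32 of 35 with at least 2000 UMIs, 48 of 56 after thinning, 52 of 59 without hepatocyte UMIs, 53 of 57 without mixed nuclei and 47 of 47 at resolution 0.6. For fragments it was kept in 73 of 84 within 2 kb, 77 of 84 with all peaks, 80 of 84 with the other scaling and 79 of 82 with at least 20 fragments. Gpr183 in NK cell-like nuclei went from 0.69 to -0.14 without doublet removal. TMM factors lowered the D5 over D0 scale of cDC2-like nuclei by a log2 shift of -0.19, and ratios rose by that size. With at least 2000 UMIs no NK cell-like, T cell-like or nonclassical monocyte-like cluster was named, so these were not recomputed. No paired analysis was possible because each day has 1 library. Genes below 30 UMIs, Ch25h above all, and single regions with few fragments are limited by depth.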
